A study of Mus musculus with 32 samples.

Results

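The genes that start from 30 to below 60 Mb on mouse chromosome 15 were followed in the hippocampus, probe set by probe set, in mice that carry the ISCL4 interval and in their littermates. Members were the exon-level rows with exactly 1 gene symbol whose gene starts in that stretch in the GRCm38 annotation, apart from 12 named genes (123 rows) that were left out. This gave 1084 of 188590 probe sets, for 88 genes from Ctnnd2 to Trib1, with 1 to 84 probe sets per gene. Of these genes, 87 are protein coding and A930017M01Rik is annotated as a transcribed pseudogene.

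Hippocampal RNA of 16 male mice aged 6 to 8 weeks, with both sides of each animal combined, was read on exon arrays, with 1 array for each mouse. There were 8 Sicd2-ISCL4 subcongenics and 8 FVB-like littermates as their controls, and no treatment is named for either group. Each array is also listed with the authors' gene-level values, so the 32 listed samples are 16 arrays. Replicates 1 to 4 of each group (array set A) and 5 to 8 (array set B) carry array files of different naming schemes. The subcongenics model 1 chromosomal interval on the FVB-like background, and its borders were not used here.

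A subcongenic line carries a short stretch of donor chromosome on the genome of a host strain, and Sicd2 is a chromosome 15 locus named for its part in seizure-induced cell death in the mouse hippocampus. Exon arrays read a gene at many places, since a probe set covers a short piece of the transcript, usually within an exon. A difference in the amount of a transcript is read by many of its probe sets, whereas a difference restricted to a piece of it is read by the probe sets on that piece. A sequence difference between the strains under a probe can also alter its reading. Probe sequences were not used here, so neither the place of a probe set on its transcript nor variants under it were examined.

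Pairwise correlations between arrays ran from 0.954 to 0.987, and 0 pairs were identical. The marker list of hippocampal neurons had a mean log2 signal of 9.36 to 9.56 in every mouse. Its mean difference was -0.039, with 7 of 10 markers lower in ISCL4 mice. The marker lists of oligodendrocytes and of neighbouring tissue were also lower in ISCL4 mice, with 0 markers called. The mean difference was -0.26 log2 for oligodendrocytes (7 of 8 measured markers lower) and -0.25 for choroid plexus (5 of 5). It was -0.19 for meninges (6 of 6) and -0.16 for striatum (5 of 5). Microglia and astrocytes differed less, by -0.035 (3 of 5 lower) and 0.014 (2 of 5 lower). The highest choroid plexus mean was nevertheless that of ISCL4 replicate 1, at 9.75 against a highest of 9.66 in FVB-like mice. The striatal mean ran from 7.81 to 8.55 in ISCL4 mice and from 7.91 to 9.31 in FVB-like mice, with FVB-like replicate 2 highest, as it was for oligodendrocytes. In tissue RNA of this kind, fewer cells of a type and less RNA per cell cannot be told apart, and the part of these markers in the results below was not tested.

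Each difference is the ISCL4 mean minus the FVB-like mean in log2 signal, and its standard error (SE) is that of a limma fit with array set as a covariate. A feature was called when its Benjamini-Hochberg adjusted p, taken over all features of its level, was under 0.05. Among the 1084 probe sets, 6 were called, 4 higher and 2 lower in ISCL4 mice (0.554%), against 0.0249% of all probe sets on the array, or 0.0196% higher and 0.0053% lower. They belong to Zfp706, Emc2, Tmem74, A930017M01Rik and Mtdh. At an unadjusted p under 0.05 the counts were 78 higher and 104 lower (16.8%), against 10.2% over all probe sets (5.16% higher and 5.07% lower). The groups did not overlap at all for 5 probe sets, and all 5 were among the called ones (0.0546% of all probe sets). Of the 6, those of Emc2, Tmem74 and A930017M01Rik and the higher one of Zfp706 were called whichever of the 16 mice was left out. Without FVB-like replicate 2, these 4 were the only calls.

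**Figure D1:**
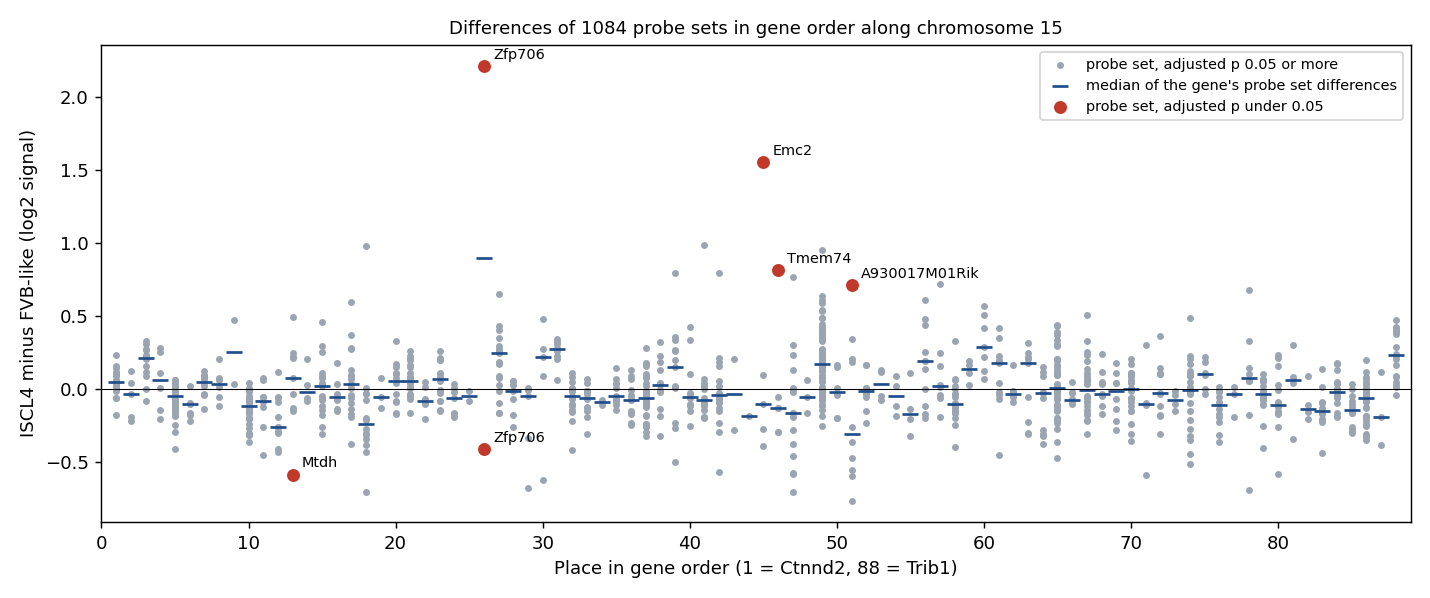
Difference between groups (vertical axis, ISCL4 minus FVB-like, log2 signal) of each of the 1084 probe sets, placed by the order of their genes along the chromosome (horizontal axis, 1 for Ctnnd2 to 88 for Trib1). Red points are the 6 called probe sets, grey points the others, and blue bars the median of each gene's probe set differences; 867 of the members have an absolute difference under 0.25.

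Zfp706, a small zinc finger protein that in mouse embryonic stem cells favours exit from self-renewal, held the largest difference. Its probe set 5600078 read 7.46, 7.70 and 8.04 (lowest, median and highest log2 signal) in ISCL4 mice and 5.17, 5.50 and 5.85 in FVB-like mice. Every ISCL4 mouse was above every FVB-like mouse, by a difference of 2.21 (SE 0.11, limma adjusted p = 2.61e-07), or 4.62-fold. It was 2.19 within set A and 2.23 within set B. The only other probe set of the gene, 5100333, went the other way, at 11.14, 11.35 and 11.71 in ISCL4 mice against 11.47, 11.73 and 12.16 in FVB-like mice, a difference of -0.41 (SE 0.065, limma adjusted p = 0.0464). Its groups overlapped over all mice but not within either array set, where set B read higher by 0.43. This second call was lost in each of the 16 fits that left out 1 mouse.

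Emc2 encodes a subunit of the endoplasmic reticulum membrane protein complex, which inserts membrane proteins. Its probe set 5026784 read 11.99, 12.15 and 12.41 in ISCL4 mice and 9.56, 10.66 and 11.37 in FVB-like mice, with no overlap. The difference was 1.55 (SE 0.19, limma adjusted p = 0.0038), or 2.94-fold, with a spread of 0.13 (SD) in ISCL4 mice and 0.55 in FVB-like mice (n = 8 each). The other 4 probe sets of Emc2 ran from -0.39 to 0.09, with 3 of 4 lower in ISCL4 mice and none called.

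Tmem74, a transmembrane protein of lysosomes that was linked to autophagy in human cells, had 1 probe set against 5. Probe set 4861976 read 7.29, 7.76 and 8.13 in ISCL4 mice and 6.68, 6.90 and 7.14 in FVB-like mice, and the groups did not overlap. It was higher by 0.82 (SE 0.11, limma adjusted p = 0.0166), or 1.76-fold. Set A gave 0.57 and set B 1.06, which differed from each other at an unadjusted interaction p of 0.0228 by limma, while the lowest adjusted interaction p of any member was 0.581. All 5 other probe sets of Tmem74 were lower in ISCL4 mice, from -0.29 to -0.05, and none was called. Without the array set term in the fit this probe set was not called, nor were those of Mtdh and the lower one of Zfp706.

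A930017M01Rik, the pseudogene transcript, was read by 10 probe sets. Probe set 4981374 read 8.61, 8.89 and 9.10 in ISCL4 mice and 7.78, 8.23 and 8.40 in FVB-like mice, again without overlap, a difference of 0.71 (SE 0.098, limma adjusted p = 0.0166), or 1.64-fold. Of the 9 others, 6 were lower and 3 higher, and the 4 with an unadjusted p under 0.05 were all lower, from -0.76 to -0.36. The lower one nearest to a call, 5387852, differed by -0.55 (limma adjusted p = 0.0929) and stood just outside the threshold.

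Mtdh, or metadherin, is known for its part in tumour growth and NF-kB signalling. Its probe set 4344317 was lower, at 9.28, 9.69 and 9.84 in ISCL4 mice against 9.97, 10.18 and 10.59 in FVB-like mice, with no overlap. The difference was -0.58 (SE 0.089, limma adjusted p = 0.0342), and it was -0.64 and -0.53 in the array sets. Of the 10 others, 5 had an unadjusted p under 0.05 and all 5 were higher, up to 0.50. This call was lost in 14 of the 16 fits that left out 1 mouse.

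**Figure D2:**
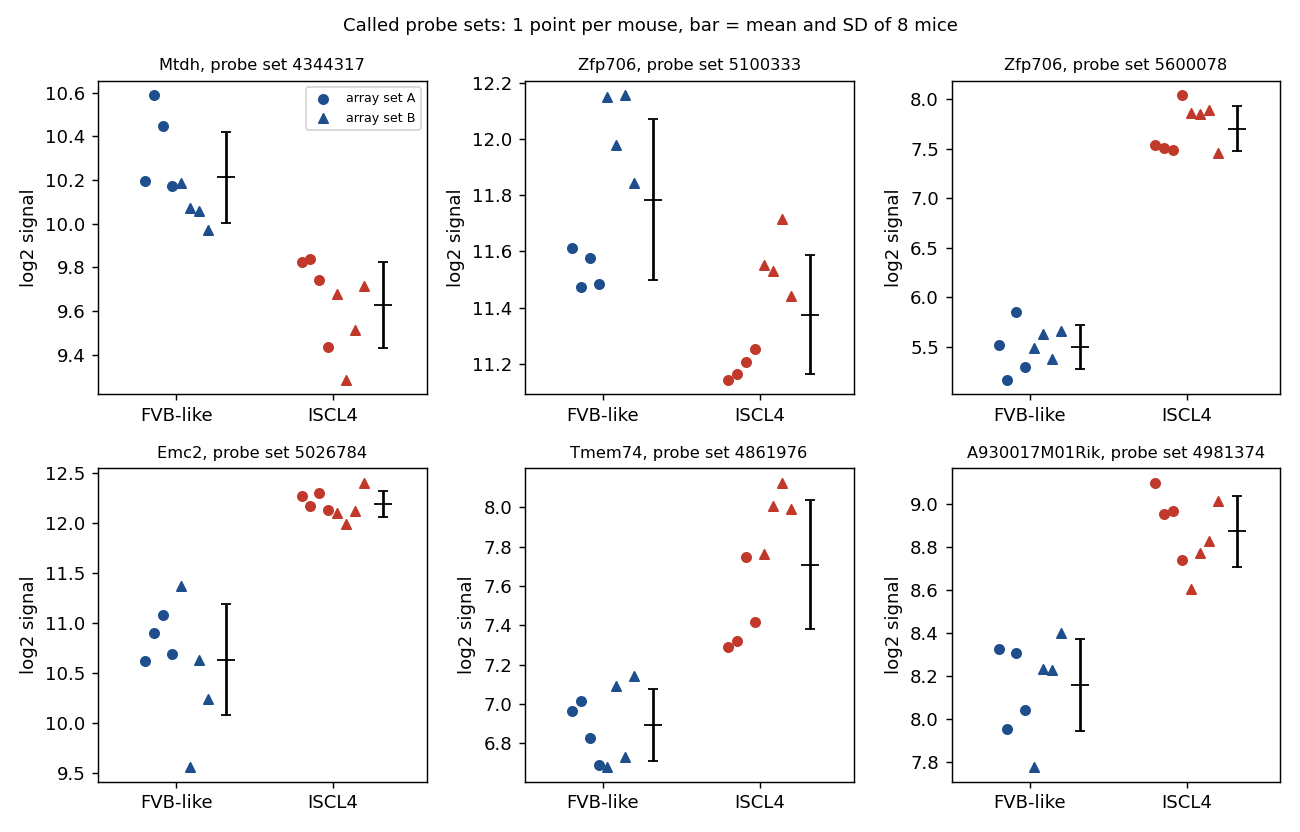
Log2 signal (vertical axes, which do not start at 0) of the 6 called probe sets in each mouse, FVB-like in blue and ISCL4 in red; circles are array set A, triangles array set B, and black bars the mean and SD of 8 mice. The groups stand apart in 5 panels, and in that of Zfp706 probe set 5100333 they overlap between array sets only.

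To ask whether a probe set differed from its own gene, each was set against the median of the other probe sets of its gene on the same array, for the 82 member genes with at least 3 probe sets. Of 1073 probe sets, 5 in 3 genes deviated (limma adjusted p under 0.05), against 0.0175% of all those tested. Emc2 held 3, with deviations of 1.70 (adjusted p = 0.0005) for probe set 5026784, -1.19 (adjusted p = 0.0005) for 4990570 and -0.90 (adjusted p = 0.0319) for 4433312. The 2 lower ones were set against probe sets that include 5026784, so their deviations are not separate from its difference. Their own differences between groups were no lower than -0.39. Tmem74 probe set 4861976 deviated by 0.99 (adjusted p = 0.0128) and Mtdh probe set 4344317 by -0.77 (adjusted p = 0.0062). When each probe set was first centred on its own mean over the 16 arrays, the calls were these probe sets of Tmem74 and Mtdh, Emc2 5026784 and A930017M01Rik 4981374, and the lower Emc2 probe sets were not called. The call of Emc2 4433312 was also lost in 12 of the 16 fits that left out 1 mouse. Zfp706, with 2 probe sets, could not enter this test.

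**Figure D3:**
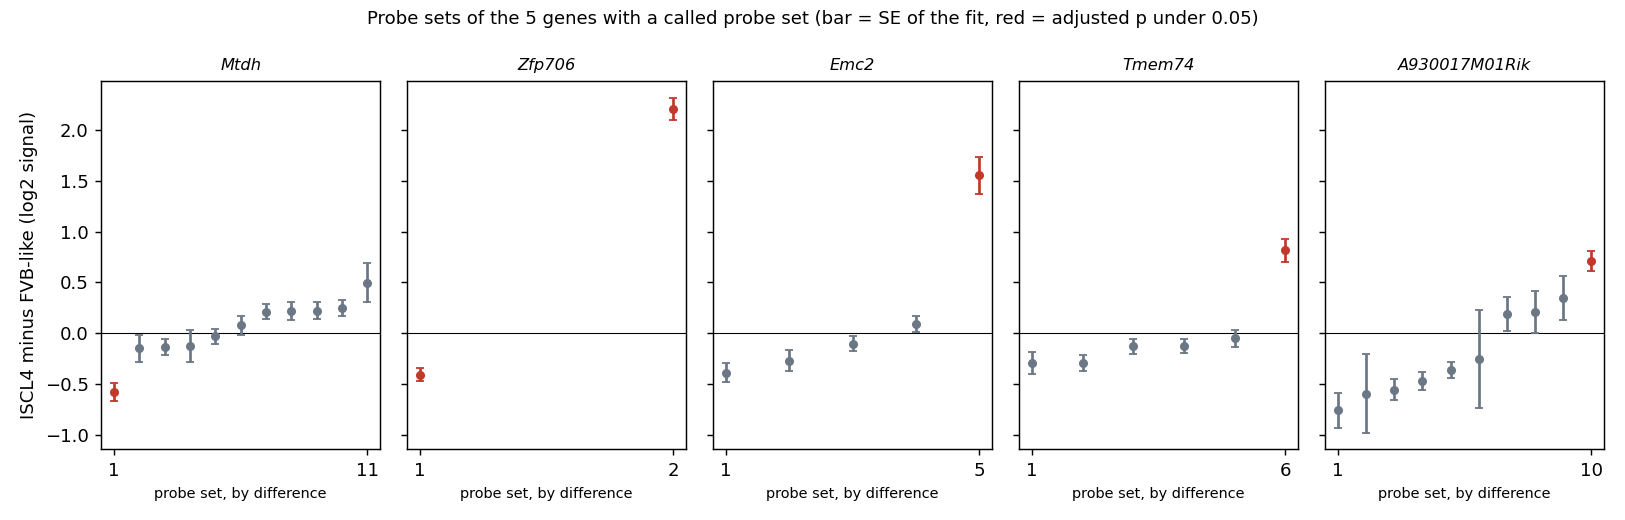
Differences between groups (log2 signal, bars are the SE of the fit) of every probe set of the 5 genes with a called probe set, in order of size within each gene; red marks called probe sets. Single red points stand apart from the rest of Emc2, Tmem74 and Mtdh, and the 2 probe sets of Zfp706 lie on opposite sides of 0.

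Each gene was then given 1 value per mouse, the median of its probe sets. Of the 88 genes, 2 were called, both higher in ISCL4 mice (2.27%, against 0.057% of 15796 genes). For Zfp706 this value is the mean of its opposite probe sets, at 9.34, 9.55 and 9.80 in ISCL4 mice against 8.32, 8.74 and 8.82 in FVB-like mice, a difference of 0.90 (SE 0.069, limma adjusted p = 5.51e-06). Its gene-level feature had the same group means as this value, 9.54 and 8.64, so its difference of 0.90 is not a separate reading. That feature was the 1 called among the region's 91 (1.1%, against 0.292% of 16755). For Emc2 the median was higher by 0.82 (SE 0.14, limma adjusted p = 0.0375), and the groups did not overlap. Set A gave 0.48 and set B 1.16, with an unadjusted interaction p of 0.0080 by limma. By limma, 0 of the 88 genes had an adjusted interaction p under 0.05 and 7 an unadjusted one (7.95%, against 6.54% of all genes). The middle probe set was 4630485 on 7 of 8 ISCL4 arrays and 4990570 on 7 of 8 FVB-like arrays, so the groups' medians came mostly from different probe sets. With each probe set centred first the Emc2 difference was 0.014 (limma adjusted p = 0.951), and the gene-level feature gave 0.18 (adjusted p = 0.255). The Emc2 gene call was lost in 13 of the 16 fits that left out 1 mouse.

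Over the 88 genes, 37 were higher and 51 lower, against 51.9% higher and 48.1% lower over all genes. Their median difference was -0.040, against 0.0055 over all genes. At an unadjusted p under 0.05, 7 were higher and 9 lower (18.2%), against 11.4% of all genes (6.17% higher and 5.27% lower). Of the 91 gene-level features, 18 passed that mark (19.8%), 10 higher and 8 lower, against 14.4% of all features (7.51% higher and 6.89% lower). The gene-level difference followed the median of probe sets with r = 0.85 over 85 genes measured at both levels, 73 of them with the same sign; both values come from the same arrays. Erich5, Slc22a22 and Sybu were present at gene level only.

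**Figure D4:**
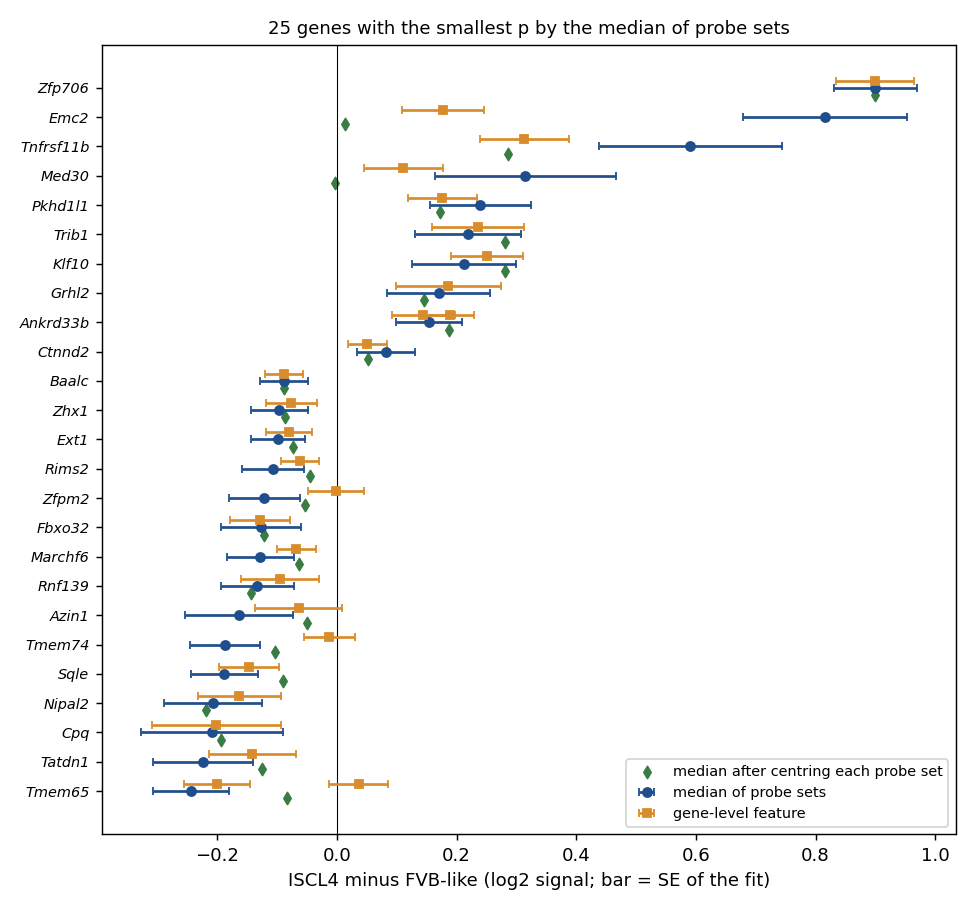
Differences between groups (horizontal axis, log2 signal, bars are the SE of the fit) of the 25 genes with the smallest p, by the median of probe sets (blue), the median after centring each probe set (green) and the gene-level feature (orange). The 3 values coincide for Zfp706 at 0.90, where each equals the mean difference of its 2 probe sets. They spread from 0.014 to 0.82 for Emc2. Ankrd33b and Tmem65 have 2 gene-level features.

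Several genes had probe sets that mostly lay on 1 side of 0 although none was called. Among the 59 genes with at least 7 probe sets, 15 had at least 80% of them on 1 side, 5 higher and 10 lower. This cut-off was chosen after the values were seen, and probe sets of a gene share its RNA, so it carries no test. The same count was not made over all genes, so whether 15 of 59 is unusual for the array is not known. Klf10, a zinc finger transcription factor induced by TGF-beta, was higher at 8 of 8 probe sets, 6 of them at an unadjusted p under 0.05. Its median read 7.98, 8.19 and 8.56 in ISCL4 mice and 7.56, 8.00 and 8.50 in FVB-like mice, largely overlapping, a difference of 0.21 (limma adjusted p = 0.370), and its gene-level feature differed by 0.25 (adjusted p = 0.0999). Trib1, a pseudokinase that brings proteins to a ubiquitin ligase, was higher at 17 of 18 probe sets, 8 of them at an unadjusted p under 0.05. Its median read 7.01, 7.41 and 7.68 in ISCL4 mice and 6.99, 7.12 and 7.40 in FVB-like mice, a difference of 0.22 (adjusted p = 0.365). Tnfrsf11b, or osteoprotegerin, a secreted decoy receptor for RANKL, was higher at 7 of 7 probe sets. Its dim median read 5.85, 6.39 and 7.05 in ISCL4 mice and 5.01, 5.94 and 6.27 in FVB-like mice, a difference of 0.59 (adjusted p = 0.181) against 0.31 for its gene-level feature (adjusted p = 0.0999). That 0.59 is above the largest difference of any of its probe sets, 0.57. With each probe set centred first the difference was 0.29 (limma adjusted p = 0.140). None of these 3 genes was called at either level.

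Of the 15 genes, 10 lay mostly on the lower side. Sema5a, a transmembrane semaphorin of axon guidance, was lower at 28 of 30 probe sets, 6 of them at an unadjusted p under 0.05. Its median overlapped almost fully, at 8.86, 9.29 and 9.79 in ISCL4 mice and 8.98, 9.41 and 9.77 in FVB-like mice, a difference of -0.11 (limma adjusted p = 0.566). Nipal2, of a family of magnesium transporters, was lower at 12 of 14 probe sets, 7 of them at an unadjusted p under 0.05, while 1 dim probe set was higher by 0.98 (adjusted p = 0.346). Sqle, the squalene epoxidase of cholesterol synthesis, was lower at 12 of 14 probe sets. Its median read 8.83, 8.97 and 9.12 in ISCL4 mice and 8.93, 9.21 and 9.35 in FVB-like mice, a difference of -0.19 (adjusted p = 0.235). With each probe set centred first the Sqle difference was -0.090. Cpq, a carboxypeptidase, was lower at 10 of 11 probe sets, with a difference of -0.21 (adjusted p = 0.519).

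**Figure D5:**
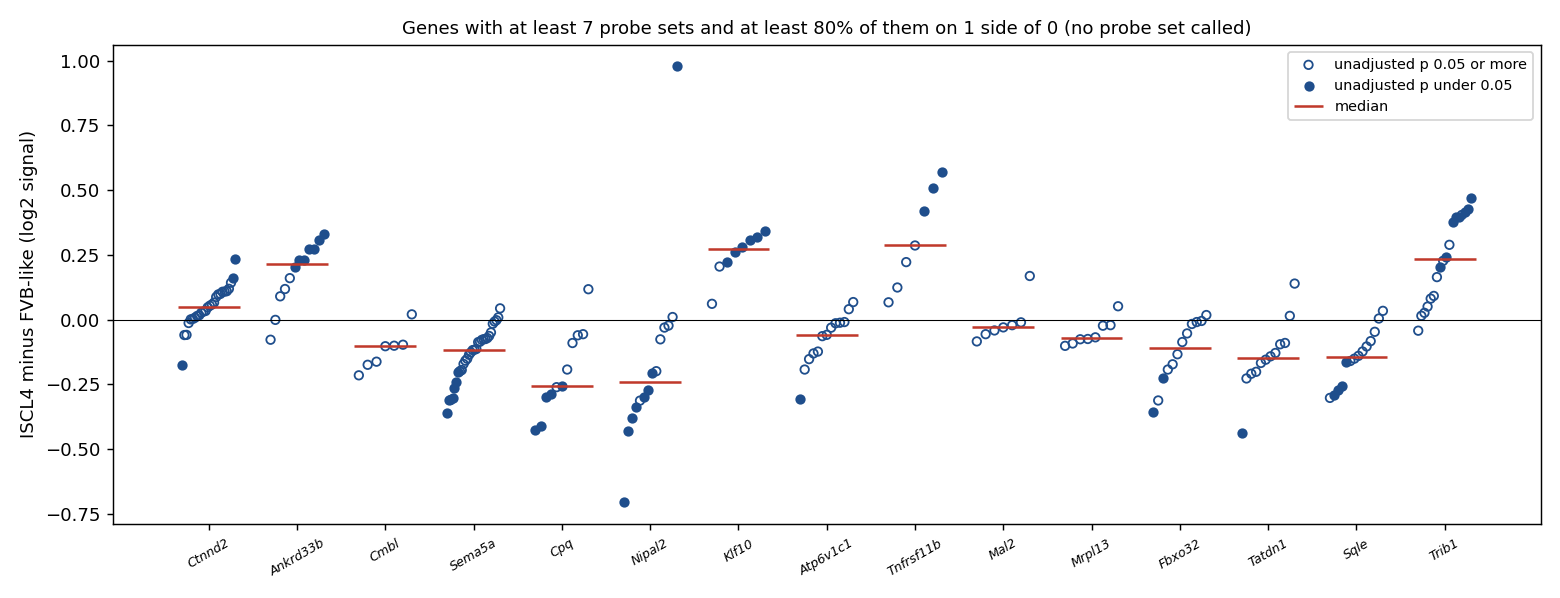
Differences between groups (vertical axis, log2 signal) of each probe set of the 15 genes with at least 7 probe sets and at least 80% of them on 1 side of 0, in gene order; filled points have an unadjusted p under 0.05 and red bars are medians. The medians of Ankrd33b, Klf10, Tnfrsf11b and Trib1 lie between 0.22 and 0.29, and those of the 10 lower genes between -0.25 and -0.030.

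Ankrd33b, an ankyrin repeat protein, is gene 3 in order, at the proximal end of the region, with Marchf6 at 5 and Sema5a at 10. It was higher at 10 of 12 probe sets, 7 of them at an unadjusted p under 0.05, and its median read 9.17, 9.27 and 9.42 in ISCL4 mice against 8.97, 9.08 and 9.45 in FVB-like mice, a difference of 0.15 (limma adjusted p = 0.311). Its 2 gene-level features differed by 0.19 (adjusted p = 0.0693) and 0.14 (adjusted p = 0.236). Marchf6, an endoplasmic reticulum ubiquitin ligase known to degrade squalene epoxidase, had 8 of 35 probe sets lower and 0 higher at an unadjusted p under 0.05, and the median of its probe sets differed by -0.13 (adjusted p = 0.399). With each probe set centred first the Marchf6 difference was -0.063, and its gene-level feature gave -0.067. Because the probe sets of these 3 genes, all near the proximal end, lay mostly on different sides of 0, their promoters are shown, from 250 bases before to 50 after the annotated start (RefSeq, GRCm38.p6, 5′ to 3′ on the gene's strand), with GGGCGG and its reverse complement CCGCCC in capitals. Promoters of 10 of the 88 genes matched by symbol.
Ankrd33b, chr15:31367710-31368009, minus strand: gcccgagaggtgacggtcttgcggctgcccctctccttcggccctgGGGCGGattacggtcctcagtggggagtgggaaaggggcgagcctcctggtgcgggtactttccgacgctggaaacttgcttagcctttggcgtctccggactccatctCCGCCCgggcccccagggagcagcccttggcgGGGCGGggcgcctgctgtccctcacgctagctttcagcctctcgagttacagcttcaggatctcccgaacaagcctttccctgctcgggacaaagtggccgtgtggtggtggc
Marchf6, chr15:31530988-31531287, minus strand: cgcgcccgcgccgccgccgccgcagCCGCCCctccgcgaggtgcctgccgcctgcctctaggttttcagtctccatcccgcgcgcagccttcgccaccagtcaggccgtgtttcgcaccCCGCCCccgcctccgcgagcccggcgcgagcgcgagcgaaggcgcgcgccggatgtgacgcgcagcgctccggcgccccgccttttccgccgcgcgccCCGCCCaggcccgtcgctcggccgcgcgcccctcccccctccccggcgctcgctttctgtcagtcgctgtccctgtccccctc
Sema5a, chr15:32244563-32244862, plus strand: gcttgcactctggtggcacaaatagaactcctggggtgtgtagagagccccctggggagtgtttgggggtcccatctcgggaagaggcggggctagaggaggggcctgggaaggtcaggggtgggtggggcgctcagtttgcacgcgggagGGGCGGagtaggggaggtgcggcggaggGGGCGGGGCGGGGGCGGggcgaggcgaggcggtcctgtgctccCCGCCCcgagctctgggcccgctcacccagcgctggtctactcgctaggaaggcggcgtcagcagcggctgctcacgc
The motif was found 3 times for Ankrd33b, 3 times for Marchf6 and 5 times for Sema5a on either strand, 2 of the latter sharing a base, and 35.7% of all 32851 promoters of that length hold it. The letters TATAAA, on either strand, were in none of the 3 (0 matches each) and in 13.6% of all promoters. GC content was 66.0%, 78.7% and 71.3%, against a median of 52.7%. These matches describe the letters of the reference sequence only.

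The genes were also read by role, in lists that cover 67 of the 88. Counts are of genes by the median of probe sets, and none of the lists was tested. As for Emc2, that median can come from different probe sets in each group. With each probe set centred first a difference can then change in size, as for several genes below. Small differences can change sign, from 0.039 to -0.091 for Sdc2 and from -0.075 to 0.013 for Ncald. Synapse and excitability genes were mostly lower, 8 of 9, with a median difference of -0.089 against 0.0055 over all genes. Tmem74, described above as a protein of lysosomes, is counted in this list, among the lower at -0.19. Its difference was -0.10 with each probe set centred first and -0.012 for its gene-level feature. Of the list's 126 probe sets, 18 were lower and 7 higher at an unadjusted p under 0.05 (19.8% together, against 10.2% over all probe sets). Sema5a held 6 of the 18 lower ones and Rims2 held 7. The called one of Tmem74 was among the higher. Rims2, which organises the presynaptic active zone, differed by -0.11 (limma adjusted p = 0.450), with 7 probe sets lower and 2 higher at that mark among 34. Centred first it differed by -0.044, and its gene-level feature by -0.062. Baalc, a membrane-associated protein of neural tissue, read 11.47, 11.54 and 11.65 in ISCL4 mice and 11.62, 11.65 and 11.70 in FVB-like mice, a difference of -0.089 (adjusted p = 0.419). Ctnnd2, the delta-catenin of dendrites, was the 1 gene of this list that was higher, by 0.083 (adjusted p = 0.530), with 22 of 26 probe sets higher.

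Ubiquitin and protein quality control genes were lower in 7 of 8, with a median difference of -0.13. The exception was Emc2, described above. At an unadjusted p under 0.05, 16 of the list's 87 probe sets were lower against 2 higher (20.7% together). Of the 16 lower ones, Marchf6 held 8 and Emc2 2. Besides Marchf6, Rnf139, another ubiquitin ligase of the endoplasmic reticulum, differed by -0.13 (limma adjusted p = 0.429), and Fbxo32, the muscle atrophy F-box protein atrogin-1, by -0.13 (adjusted p = 0.483). Azin1, which frees ornithine decarboxylase from antizyme, differed by -0.16 (adjusted p = 0.501). With each probe set centred first the Azin1 difference was -0.050, and its gene-level feature gave -0.064. Metabolic and mitochondrial genes were lower in 7 of 9, with a median difference of -0.12. Their probe sets with an unadjusted p under 0.05 were 8 higher and 12 lower of 99 (20.2%). Cpq held 5 of the 12 lower ones and Sqle held 4. Oxr1, which protects neurons from oxidative stress, was lower at 14 of 20 probe sets but had 4 higher and 1 lower at that mark, and its own median differed by -0.047 (adjusted p = 0.860).

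Transcription and chromatin genes were evenly split, 6 higher and 5 lower, with a median difference of 0.031; Zfp706 was the 1 called gene, and 13.6% of their 118 probe sets had an unadjusted p under 0.05. Zfpm2, a GATA cofactor, had a probe set, 5535091, that was higher by 0.99 but not called (limma adjusted p = 0.118), while its median differed by -0.12 (adjusted p = 0.457). That median differed by -0.053 with each probe set centred first, and the gene-level feature of Zfpm2 by -0.0011. Med30, a Mediator subunit, was higher by 0.31 (adjusted p = 0.443) at a dim mean signal of 5.23. With each probe set centred first its difference was -0.0023, and its gene-level feature gave 0.11. Grhl2, an epithelial transcription factor, was higher at 15 of 19 probe sets, with a difference of 0.17 (adjusted p = 0.467).

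Translation and RNA processing genes were nearly even, 4 higher and 5 lower, and 7 of their 72 probe sets (9.72%) had an unadjusted p under 0.05, near the 10.2% of the whole array. Membrane traffic genes were 5 higher and 3 lower, with 2 probe sets higher and 8 lower at that mark of 131 (7.63%, below the whole array); 6 of the lower ones belong to Washc5, a subunit of the WASH complex of endosomes. Among the higher genes of the membrane traffic list, Ebag9 and Fam91a1 stood at 0.0024 and 0.0025. With each probe set centred first they stood at -0.13 and -0.017. Matrix and secreted genes were 4 higher and 2 lower, with 14.5% of 110 probe sets at an unadjusted p under 0.05. Sdc2 counted as higher although 7 of its 9 probe sets were lower. Ext1, a polymerase of heparan sulfate, differed by -0.098 (limma adjusted p = 0.421). Growth and death signalling genes were 4 higher and 3 lower, with 13 probe sets higher and 6 lower at an unadjusted p under 0.05 of 80 (23.8%); all 13 higher ones were from Trib1 and Mtdh, which held 8 and 5.

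Outside the role lists, Tmem65, a protein of the mitochondrial inner membrane, read 8.54, 8.72 and 9.08 in ISCL4 mice and 8.67, 9.04 and 9.41 in FVB-like mice, a difference of -0.24 (limma adjusted p = 0.181). With each probe set centred first the Tmem65 difference was -0.084. Its 2 gene-level features gave -0.20 and 0.037, on different sides of 0. Tatdn1, a TatD-type nuclease, differed by -0.22 (adjusted p = 0.327). Pkhd1l1, known from the surface coat of mouse hair cell stereocilia, was the gene with the most probe sets, 61 of 84 higher, with a difference of 0.24 (adjusted p = 0.305) at a dim mean signal of 4.53. Nudcd1 held differences in both directions, with 7 of 16 probe sets lower and 1 higher at an unadjusted p under 0.05.

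Large differences were often at dim probe sets. Of the 10 largest in each direction, 6 of the higher and 5 of the lower were below the 25th percentile of signal over the array, and 3 of the higher and 1 of the lower were called. The uncalled ones included, on the higher side, probe sets of Med30 (0.72), Nudcd1 (0.77), Oxr1 (0.79), Dpys (0.80), which breaks down pyrimidines, and Pkhd1l1 (0.95). On the lower side were Anxa13 (-0.69), a membrane-binding annexin, Rrm2b (-0.68), a ribonucleotide reductase subunit, Odf1 (-0.62), a sperm tail protein, and Fam83a (-0.59). Zhx1, a zinc finger and homeobox protein, was also among the 25 genes with the smallest p, lower at 4 of 4 probe sets with a difference of -0.096 (limma adjusted p = 0.464).

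Along the chromosome the called probe sets ran from Mtdh, gene 13 in order, to A930017M01Rik, gene 51. In 4 consecutive blocks of 22 genes, the first (Ctnnd2 to Ankrd46) held 1 called probe set of 278, the second (Snx31 to Eif3e) 2 of 233, the third (Emc2 to Mrpl13) 3 of 296 and the last (Mtbp to Trib1) 0 of 277. The share at an unadjusted p under 0.05 was 20.5%, 17.2%, 15.5% and 14.1% in that order, and each was above the 10.2% of the whole array. Of the 88 genes, 62 had at least 1 such probe set, 18 had them in both directions and 26 had none. The same was not counted over all genes. The share of probe sets at that mark also moved with brightness. It went from 9.7% in the 361 dimmest members to 17.7% in the next 361 and 22.9% in the 362 brightest. Their median SE was 0.21, 0.11 and 0.078. Direction moved as well. At an unadjusted p under 0.05, 26 were higher and 9 lower in the dimmest, 27 and 37 in the next, and 25 and 58 in the brightest. The part of brightness in the differences between blocks, and in the directions of the role lists, was not tested.

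Elsewhere on chromosome 15, 3 of 969 probe sets (0.31%) were called in the proximal 30 Mb and 2 of 5238 (0.0382%) from 60 Mb to the end, all of them higher. At an unadjusted p under 0.05 the shares were 15% and 10.4%. Both lower calls of the chromosome's 3 stretches were in Zfp706 and Mtdh. By 2 other counts the proximal stretch stood higher, with 7 probe sets without overlap (0.722%, against 0.461% of the members) and 2 of 58 gene-level features called (3.45%, against 1.1%). The difference between the stretches was not tested. The median difference of the members was -0.0145, against 0.0031 and 0.0258 in the other stretches and 0.0037 over all probe sets, and their median absolute difference was 0.115, against 0.102 over all.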

How the data were processed

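The values are log2 signals that the authors deposited at exon and at gene level. RMA, Partek 6.6 and the build mm9 are named, per the submitters' processing notes, and what each was used for is not given in the sources used here; no detection call was used, so a dim value can be background. Symbols came from the platform annotation: 179269 exon-level rows had 1 symbol, 1325 several and 7996 none. RefSeq GRCm38.p6 gave names and gene order (178914 rows placed, 193 member rows by an older name); its build differs from the files', so its coordinates are given for its own promoter sequences only. Groups and replicate numbers came from the titles.

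All rows of each level were fitted with limma 3.58.1 (lmFit, eBayes) in R 4.3.3, with array set as a covariate, and adjusted over all rows (Benjamini-Hochberg). With 16 arrays setting the precision, the median SE was 0.117 for a member probe set and 0.082 for a gene. The fits were tested on simulated data. Figures were drawn with matplotlib 3.10.9.

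Genes could be named by rule: those with a call in any of the 4 fits, the 25 with the smallest p by the median of probe sets, the 10 largest probe set differences in each direction, role list members and both end genes. Oligonucleotide probe sequences were not used. The members, role lists and marker lists were chosen with earlier results of these data known, and the genes with probe sets mostly on 1 side of 0 were singled out after their values were seen. Alternatives covered the array set term, replicate block, each array set alone, normalization, a low-signal filter, the eBayes settings, array weights, each mouse left out, and mean or centred probe sets, the last chosen after seeing the data.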

Additional observations from a re-analysis of the deposited data

Results flagged for a closer look

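In 1 of 68 groups of 8 mice tested, 1 mouse stood far from the others by Dixon's criterion, which chance meets in about 1 in 20 groups. It was ISCL4 replicate 1 for Cpq, where the median of the probe sets was 8.86, against 8.40 in the nearest ISCL4 mouse and 8.12 in the lowest.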

How the results depend on the processing

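The 6 called probe sets, 2 called genes, 1 called gene-level feature and 5 called deviations kept their direction under every alternative, and the median difference of the members stayed between -0.0208 and -0.0109 with each mouse left out and was -0.038 with a low-signal filter. With each mouse left out, 4 to 5 probe sets, 1 to 2 genes, 1 to 2 gene-level features and 4 to 5 deviations were called. Over the whole array these fits called 26 to 47 probe sets, 3 to 11 genes, 19 to 66 features and 23 to 29 deviations. In the region, 5 to 9 probe sets then had groups without overlap (9 without ISCL4 replicate 4). Array set A alone (4 against 4) gave 0 calls of any kind in the region, and 1 probe set over the whole array. Set B alone gave 1 probe set, 1 gene, 1 gene-level feature and 0 deviations (13, 6, 5 and 4 over the whole array). In sets A and B alone, 74 and 86 probe sets were without overlap. Groups of 4 against 4 separate more easily than groups of 8. The share over all probe sets is not given for the counts without overlap in this paragraph. They are therefore not read as a result about the region. Without the array set term 3 probe sets (Emc2, A930017M01Rik and the higher one of Zfp706) and 3 deviations were called. Over the whole array that fit called 23 and 17. With trend and robust settings in limma's eBayes, 14 probe sets, the 6 among them, and 2 gene-level features were called. Over the whole array these settings called 273 and 102, against 47 and 49. A low-signal filter gave 7 probe sets, the 6 among them, 2 gene-level features and 7 deviations (99, 84 and 33 over the whole array). In both cases the second feature was Ankrd33b, as it was without FVB-like replicate 6 or ISCL4 replicate 5. The mean of probe sets, and probe sets centred first, each called 1 gene, Zfp706 (47 and 41 over the whole array). The difference of Fbxo32 turned to 0.047 in set B alone and that of Med30 to -0.0023 with probe sets centred first; neither was called, and the cause was not tested.

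Replicate numbers did not meet the criterion for pairing, which asked for every correlation of same-numbered mice to be over 0.1: they ran from 0.01 to 0.14, and 3 of 8 were over it. With the replicate block, 3 probe sets (the same as without the array set term), 1 gene and 2 deviations were called. Over the whole array the block gave 30, 2 and 17. Its limma adjusted p was 0.158 for the Emc2 gene, and 0.116, 0.146 and 0.208 for the deviations of Tmem74, Mtdh and Emc2 4433312. In each group 5 of 8 mice correlated best with their own number, a hint of pairing from the data and not from the design.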
